A study of Mus musculus with 3 samples.

Results

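The genes described are the secreted Wnt proteins, the Frizzled and other receptors that receive them, the secreted antagonists, the R-spondins with their Lgr receptors, the release factors Porcn and Wls, and the Dishevelled adaptors. They were chosen by symbol, and the rule found 54 of the 23238 gene symbols in the count files. The cells were c2c12, an established mouse myoblast line whose cells fuse into myotubes once they are placed in an induction medium. Cells of this line were kept for 2 days in medium with 2% horse serum on a tissue culture plate (TCP), on a hydrogel of 15% methacrylated gelatin (GelMA), or on the same hydrogel with 1% of PSS, poly(sodium 4-styrenesulfonate), a sulfonated polymer that mimics heparin (GelMA-PSS). The 3 substrates shared the cell line and the medium, and 1 library was sequenced per substrate, so differences between substrates carry no replicate error and no p-value is given.

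Wnt ligands carry a lipid attached by the acyltransferase porcupine and leave the cell with the carrier Wntless. At the next cell they bind Frizzled receptors, and Dishevelled passes the signal on, either to β-catenin and the Tcf and Lef factors or to planar cell polarity and other branches. Antagonists act outside the cell. The Sfrp proteins, Frzb and Wif1 bind the ligands, whereas Dkk1 and Dkk2 bind the Lrp5 and Lrp6 co-receptors. Wnt ligands are also known to bind heparan sulfate proteoglycans at the cell surface, and in skeletal muscle they act in the formation of muscle and in satellite cells.

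The libraries held between 87071144 and 192171443 counts. Counts were scaled to CPM, that is, relative to each library's total adjusted by a TMM factor, and a CPM of 1 corresponded to between 90.9 and 181 counts. All 7 myoblast and myotube markers examined were above this level, with summed CPM values of 18430 on TCP, 13656 on GelMA and 8577 on GelMA-PSS. The lower sums came with Myh3, the embryonic myosin gene, at CPM values of 10182, 6355 and 3037 in the same order, and with the titin gene Ttn, at 3073, 2808 and 522. The other markers did not have this order: Myf5 and Myod1 were highest on GelMA-PSS, at 36.5 against 13.9 on TCP and at 119 against 94.3, and Myog, Des and Cdh15 had log2 ratios of GelMA-PSS to TCP between -0.09 and 0.01. These marker values, that of Ttn included, are not corrected for transcript length, and genes with longer transcripts had lower ratios of GelMA-PSS to GelMA. Of 15 markers of endothelial, macrophage, epithelial, adipocyte, osteoblast and chondrocyte cells, 4 reached a CPM of 1 (Krt14, Cdh1, Bglap and Col2a1), and the summed level of the 15 was between 11.1 and 19.8. Ptprc had 0 counts on TCP and GelMA, and Adgre1 had 0 on TCP and GelMA-PSS. Col2a1, a cartilage collagen, stood at a CPM of 6.51 on GelMA, 0.107 on TCP and 0.0110 on GelMA-PSS. In bulk RNA, fewer cells that express a gene and less RNA per cell cannot be told apart.

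A CPM of 1 was reached on 1 or more substrates by 31 of the 54 members, and in all 3 libraries by 23. They were 6 of 19 Wnt ligands (Wnt2b, Wnt4, Wnt7b, Wnt9a, Wnt10a and Wnt10b), both release factors, and 8 of 10 Frizzled receptors, all except Fzd8 and Fzd10. Ror1, Ror2 and Ryk, the receptors Lgr4, Lgr5 and Lgr6, the adaptors Dvl1, Dvl2 and Dvl3, and 6 of 10 antagonists (Sfrp1, Sfrp4, Dkk1, Dkk2, Dkk3 and Wif1) also reached it. None of the 4 R-spondins did. Wif1 passed only through TCP, and Wnt2b, Ror1, Ror2 and Lgr5 only through GelMA, so these 5 members had to be lower on the other substrates. The nearest members above the limit were Wnt2b, Wif1 and Ror2, with highest CPM values of 1.07, 1.07 and 1.09, and those below it were Sfrp2, Wnt6 and Fzd8, at 0.845, 0.813 and 0.792. Of the 23 members under the limit, 7 (Wnt2, Wnt7a, Wnt8a, Wnt8b, Wnt9b, Rspo4 and Sfrp5) had no more than 3 counts in any library, and Wnt7a, known for its action on satellite cells, had 0 in all 3. A count of 0 allows a CPM of up to 0.0246 on TCP, 0.0330 on GelMA and 0.0166 on GelMA-PSS, as a limit for counting error only.

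**Figure D1:**
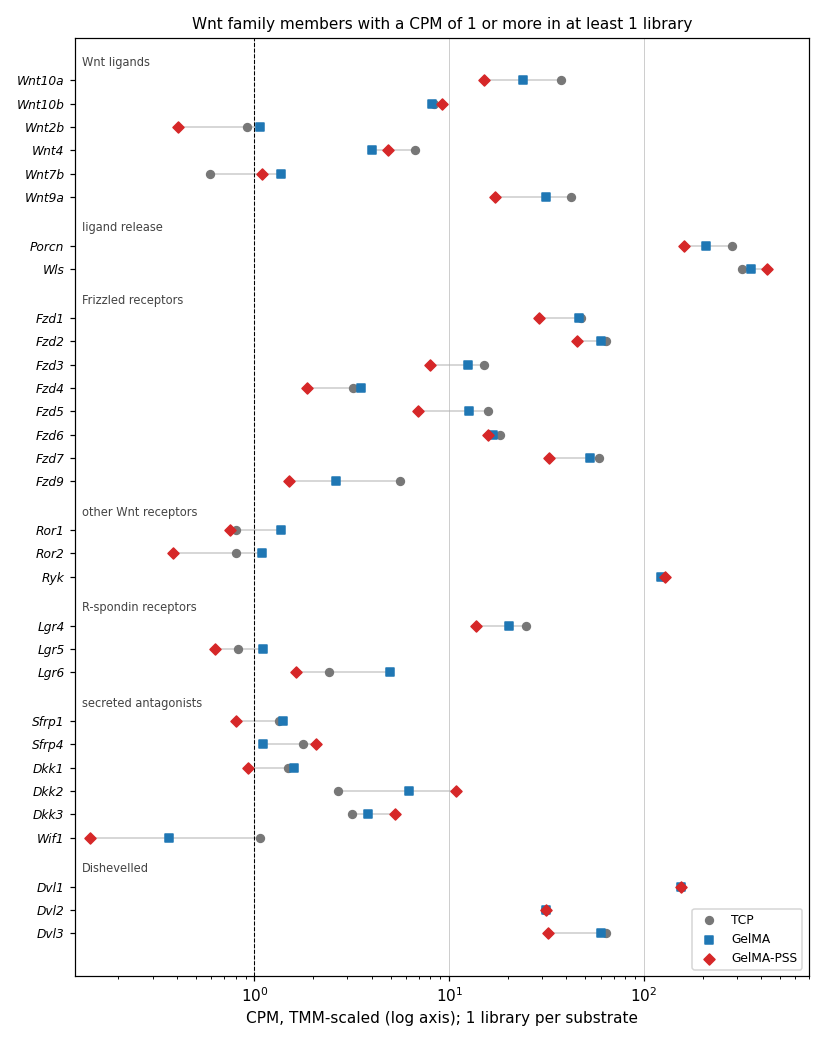
CPM of the 31 members on a log axis, with a grey circle for TCP, a blue square for GelMA, a red diamond for GelMA-PSS and a dashed line at a CPM of 1. Each point is 1 library, and all 8 Frizzled receptors shown have their lowest value on GelMA-PSS, whereas Dkk2, Dkk3 and Wls have their highest there.

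Libraries were compared by differences in log2(CPM + 0.1), called log2 ratios, and a member was counted as past 2-fold when this ratio was at or beyond 1 or -1. The intervals given are 95% intervals of the plain CPM ratio, exact and conditional on the sum of both counts, and they cover counting error only. Because shorter transcripts had higher ratios on GelMA-PSS than longer ones, each ratio was also corrected for transcript length and GC content with loess fits over all genes tested.

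The stretch upstream of the annotated start is shown for 4 members, as examples of different directions: the ligand Wnt9a and the antagonist Wif1 were past 2-fold lower on GelMA-PSS than on TCP, Dkk2 was past 2-fold higher, and the ligand Wnt10b lay close to both controls. For Wif1 the lower direction was fixed by the filter, because it passed the CPM limit through TCP alone. With a pseudocount of 1 its log2 ratio was -0.85, inside the threshold. Each window holds 200 bases, from 250 to 51 bases before the start in RefSeq, on GRCm38.p6, and overlaps 0 annotated exons. Capitals mark matches, on either strand, to CAGCTG and CACCTG, forms of the E-box that bHLH factors such as MyoD bind, and to CTTTGA, a core of the Tcf and Lef motif.
Wnt9a, chr11:59306680-59306879, plus strand: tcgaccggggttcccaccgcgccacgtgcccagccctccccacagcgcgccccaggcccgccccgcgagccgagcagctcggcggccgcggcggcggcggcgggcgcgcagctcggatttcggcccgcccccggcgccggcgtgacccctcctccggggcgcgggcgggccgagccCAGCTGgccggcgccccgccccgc
Wnt10b, chr15:98778201-98778400, minus strand: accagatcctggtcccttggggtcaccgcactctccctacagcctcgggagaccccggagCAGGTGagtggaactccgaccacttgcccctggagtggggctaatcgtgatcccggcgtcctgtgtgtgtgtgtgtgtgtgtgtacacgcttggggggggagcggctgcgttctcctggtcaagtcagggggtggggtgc
Wif1, chr10:121033754-121033953, plus strand: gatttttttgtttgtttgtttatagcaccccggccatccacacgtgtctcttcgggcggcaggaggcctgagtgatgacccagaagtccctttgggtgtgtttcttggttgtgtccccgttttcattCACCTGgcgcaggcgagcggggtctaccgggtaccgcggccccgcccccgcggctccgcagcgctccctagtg
Dkk2, chr3:132085042-132085241, plus strand: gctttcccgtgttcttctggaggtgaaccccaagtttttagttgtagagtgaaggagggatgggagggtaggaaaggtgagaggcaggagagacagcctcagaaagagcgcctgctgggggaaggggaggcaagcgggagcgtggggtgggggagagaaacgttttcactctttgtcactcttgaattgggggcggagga

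The Wnt9a window is the richest in G and C of these windows, at 85.5%, against 64.5% for Wnt10b, 61% for Wif1 and 56.5% for Dkk2 and a median of 51.5% over 32851 windows of all promoters. It holds 1 CAGCTG that begins 74 bases before the start. Wnt10b and Wif1 each hold 1 CACCTG, read on the opposite strand as CAGGTG in Wnt10b, at 190 and 123 bases before the start, and Dkk2 holds none of the motifs. Among all windows, 10.3% hold CAGCTG, 14.4% CACCTG and 11.8% CTTTGA, and among the 21 members above the CPM limit with an entry 3, 4 and 3 hold them. These letters are a description of the windows and not of bound factors.

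Among the ligands, Wnt10a and Wnt9a stood highest, and both followed the order TCP, GelMA, GelMA-PSS. Wnt10a, on chromosome 1 from 74791516 to 74804179 of GRCm38, had CPM values of 37.5 on TCP, 23.9 on GelMA and 15.1 on GelMA-PSS. The ratio of GelMA-PSS to TCP was 0.403 (interval from 0.384 to 0.422), and the log2 ratio was -1.31, or -1.23 after the correction. For Wnt9a, on chromosome 11 from 59306928 to 59333552, the CPM values were 42.4, 31.5 and 17.2. Its log2 ratio was -1.30 for GelMA-PSS against TCP and -0.87 for GelMA-PSS against GelMA, and the corrected values were -1.23 and -0.80. Both ligands passed 2-fold against TCP, and neither passed it against GelMA.

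Wnt10b did not share this order with its close paralog Wnt10a. Its CPM was 8.37 on TCP, 8.20 on GelMA and 9.24 on GelMA-PSS, and the log2 ratio against TCP was 0.14, or 0.04 after the correction. Wnt4 lay between the controls on GelMA-PSS, with CPM values of 6.69 on TCP, 4.02 on GelMA and 4.83 on GelMA-PSS. Wnt7b was lowest on TCP, with CPM values of 0.591 on TCP, 1.38 on GelMA and 1.09 on GelMA-PSS, and GelMA passed 2-fold against TCP (log2 ratio 1.09, interval of the ratio from 1.73 to 3.15). With a pseudocount of 1 this log2 ratio was 0.58, inside the threshold. The exons of Wnt7b overlap the antisense gene AU022754. Wnt2b was the only member past 2-fold lower on GelMA-PSS than on both controls, with 111 counts on TCP, 97 on GelMA and 73 on GelMA-PSS, or CPM values of 0.912, 1.07 and 0.403. Against GelMA its log2 ratio was -1.21, and against TCP -1.01, the latter -0.94 after the correction, which is inside the threshold. With a pseudocount of 1 these ratios were -0.56 and -0.45. Wnt2b passed the CPM limit through the GelMA library alone, so that the direction of its difference from GelMA was fixed by the filter.

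In the genome, 4 pairs of Wnt genes lie within 100 kb of each other, and the pairs with a member above the CPM limit were unequal in level. Wnt10a reached 37.5 CPM, while Wnt6, 6193 bases upstream on the same strand, reached 0.813. Wnt9a reached 42.4 and its neighbour Wnt3a 0.0221, and Wnt10b reached 9.24 and its neighbour Wnt1 0.110. The pair Wnt9b and Wnt3 was near the counting floor at 0.0220 and 0.0657, too low for their levels to be compared. These are the highest CPM values over the 3 libraries, and they are not scaled for transcript length.

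Levels of different genes were compared within a library as TPM, in which counts are divided by transcript length before they are scaled to a common total. TPM values were not given the loess correction, so shares set side by side between libraries keep the trend with transcript length. Wnt10a made up 45.1% of the ligand TPM on TCP, 39.6% on GelMA and 36.3% on GelMA-PSS, and Wnt9a made up 37.9%, 38.7% and 30.7%. The share of Wnt10b was larger in the same order, at 9.16%, 12.3% and 20.2%. The summed CPM of all 19 ligands was 98.0 on TCP, 71.7 on GelMA and 49.3 on GelMA-PSS.

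**Figure D2:**
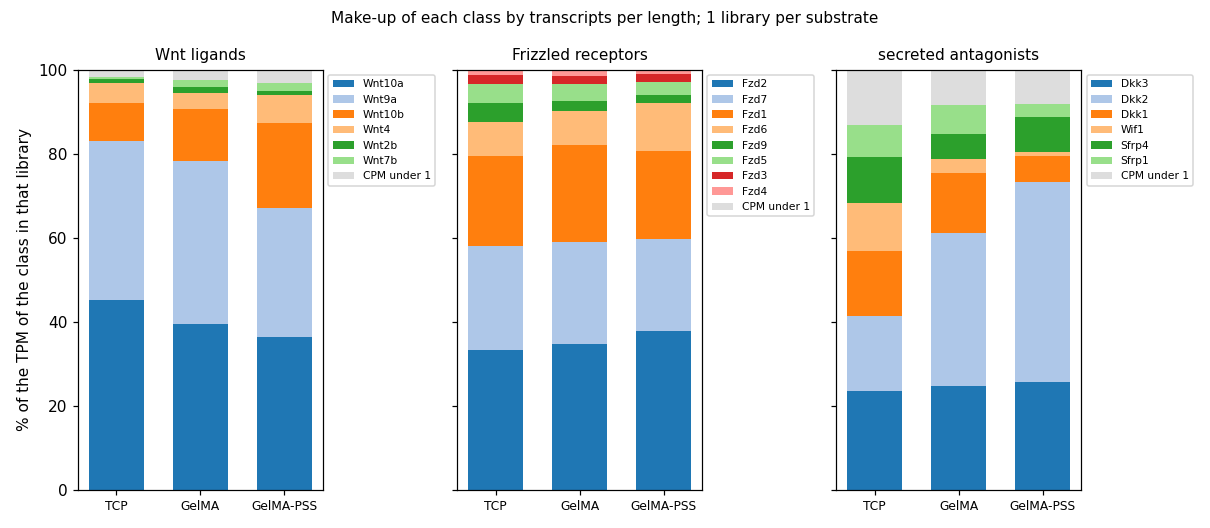
Share of each member in the TPM of its class, in percent, for the Wnt ligands, the Frizzled receptors and the secreted antagonists on the 3 substrates, 1 library each, with members under a CPM of 1 in grey. Dkk2 takes 18.04% of the antagonist TPM on TCP and 47.6% on GelMA-PSS, while the make-up of the Frizzled receptors differs less.

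The release factors differed in opposite directions. Porcn, the acyltransferase, had CPM values of 282 on TCP, 209 on GelMA and 161 on GelMA-PSS, and its log2 ratio against TCP was -0.81. Wls, the carrier, had CPM values of 318, 355 and 430, with a log2 ratio of 0.44 to TCP and of 0.28 to GelMA. The correction moved these ratios against TCP to -0.96 for Porcn and 0.36 for Wls. Neither gene passed 2-fold, and per transcript length Porcn was above Wls on TCP (316 and 189 TPM) and below it on GelMA-PSS (135 and 191 TPM).

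All 8 Frizzled receptors above the CPM limit were lower on GelMA-PSS than on both controls, and these 8 passed the limit in every library, where 39.3% of all genes tested were lower than both. Their summed CPM, with Fzd8 and Fzd10, was 228 on TCP, 208 on GelMA and 141 on GelMA-PSS. Fzd2 was the highest per transcript length on every substrate, with CPM values of 63.6 on TCP, 60.5 on GelMA and 45.1 on GelMA-PSS and a log2 ratio of -0.42 against GelMA. Fzd7, the receptor through which Wnt7a is known to act on satellite cells, had CPM values of 58.5, 52.7 and 32.6, and Fzd1 had 47.2, 46.2 and 28.8. The controls lay close together for these 3 receptors, with log2 ratios of GelMA against TCP between -0.15 and -0.03, while those of GelMA-PSS against GelMA were between -0.69 and -0.42.

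Fzd9 and Fzd5 passed 2-fold lower on GelMA-PSS than on TCP. Fzd9 had CPM values of 5.58 on TCP, 2.63 on GelMA and 1.496 on GelMA-PSS, and it was also past 2-fold lower on GelMA than on TCP (log2 ratio -1.06). Its ratio of GelMA-PSS to TCP was 0.268 (interval from 0.232 to 0.309), and the log2 ratio of -1.83 became -1.81 after the correction, in a transcript of 2293 bases. Fzd5 had CPM values of 15.8, 12.7 and 6.90. Its log2 ratio against TCP was -1.19, and -0.77 after the correction, in a transcript of 6915 bases. The other Frizzled receptors had CPM values of 15.1, 12.5 and 7.97 for Fzd3, of 18.1, 16.7 and 15.9 for Fzd6, and of 3.21, 3.52 and 1.87 for Fzd4.

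The ratios of GelMA-PSS to each control were closer to 0 for these receptors when corrected for length and GC content together. The exception was Fzd9 against GelMA, which went from -0.77 to -0.80. The part of length or of GC content in the difference was not tested. The transcripts of the 8 receptors had a median of 4428.5 bases, against 3066 over all genes tested. For GelMA-PSS against GelMA their median log2 ratio was -0.69, or -0.36 after the correction, and against TCP it was -0.80, or -0.47, where all genes tested had medians of 0.04 and 0.04. After the correction, 6 of the 8 were lower than on both controls, against 40.9% of all genes, whereas Fzd3, with 12734 bases, went from -0.64 to 0.27 and Fzd6 from -0.07 to 0.05 against GelMA. Fzd8, under the CPM limit and named after its values were seen, had 92 counts on TCP, 72 on GelMA and 46 on GelMA-PSS.

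Among the other Wnt receptors, Ryk was level across the substrates and the Ror kinases were highest on GelMA. Ryk had CPM values of 127 on TCP, 122 on GelMA and 129 on GelMA-PSS, and its log2 ratio against GelMA of 0.08 turned to -0.07 both after the correction and when libraries were scaled by total counts. Ror2, a receptor for Wnt ligands such as Wnt5a, had CPM values of 0.805, 1.09 and 0.381, from 98, 99 and 69 counts. Its log2 ratio of GelMA-PSS against GelMA was -1.31 (interval of the ratio from 0.253 to 0.480), and -1.07 after the correction. For Ror1 the CPM values were 0.805, 1.36 and 0.745. Both Ror kinases passed the CPM limit through GelMA alone, so that their highest level there was fixed by the filter.

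Of the R-spondin receptors, Lgr4 was the highest and Lgr6 differed most between the hydrogels. Lgr4 had CPM values of 24.7 on TCP, 20.4 on GelMA and 13.8 on GelMA-PSS, with a log2 ratio of -0.84 against TCP. Lgr6 had CPM values of 2.42, 4.95 and 1.63, so that GelMA stood above both other substrates. It was past 2-fold higher on GelMA than on TCP (log2 ratio 1.00, or 0.89 after the correction) and past 2-fold lower on GelMA-PSS than on GelMA (-1.54, interval of the ratio from 0.284 to 0.383, or -1.01 after the correction). Lgr5, which passed the CPM limit through GelMA alone, had CPM values of 0.821, 1.1 and 0.629. The R-spondins that these receptors bind were scarce, with a summed CPM of all 4 between 0.270 and 0.378. GelMA, where Lgr6 and Wnt7b stood highest, is also the library in which the cartilage genes Col2a1 and Acan stood highest. These had 592 and 43 counts on GelMA against 13 and 4 on TCP and 2 and 4 on GelMA-PSS. Fzd4, Sfrp1, Dkk1 and Dvl2 were also highest on GelMA. So were Wnt2b, Ror1, Ror2 and Lgr5, for which the filter fixed this. The share of all genes that were highest on GelMA is not given. The part of the cartilage genes in these results was not tested.

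The secreted antagonists split into members that were higher and members that were lower on GelMA-PSS. Dkk2, on chromosome 3 from 132085292 to 132180304, had CPM values of 2.69 on TCP, 6.20 on GelMA and 10.8 on GelMA-PSS, from 328, 563 and 1954 counts. GelMA-PSS was 4.00-fold above TCP (interval from 3.56 to 4.51, or from 3.39 to 4.75 if each fragment gave 2 counts), and the log2 ratio was 1.96, or 1.95 after the correction. Dkk2 also passed 2-fold on GelMA against TCP (log2 ratio 1.17), whereas the log2 ratio of GelMA-PSS against GelMA was 0.79. It was the only member past 2-fold higher on GelMA-PSS than on TCP, and no member was past it against GelMA. Dkk3, a Dickkopf relative, followed the same order with CPM values of 3.17, 3.84 and 5.25.

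Wif1 had the opposite order, with low counts and the lowest log2 ratio of GelMA-PSS to TCP at the pseudocount of 0.1. It lies on chromosome 10 from 121033960 to 121100650 and had 130 counts on TCP, 33 on GelMA and 26 on GelMA-PSS, or CPM values of 1.07, 0.363 and 0.144. The ratio of GelMA-PSS to TCP was 0.134 (interval from 0.0847 to 0.206), with a log2 ratio of -2.26, and that of GelMA to TCP was 0.340 (interval from 0.225 to 0.502), with a log2 ratio of -1.33. With a pseudocount of 1 the former was -0.85, inside the threshold and above the -1.40 of Fzd9. Against GelMA the log2 ratio of GelMA-PSS was -0.93, and -1.16 after the correction. Wif1 passed the CPM limit through the TCP library alone, so that the direction of its difference from TCP was fixed by the filter.

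Sfrp1 and Dkk1 were lower on GelMA-PSS than on both controls and did not pass 2-fold. Sfrp1 had CPM values of 1.34, 1.41 and 0.800, and Dkk1 had 1.495, 1.60 and 0.922 on TCP, GelMA and GelMA-PSS. Sfrp4 was lowest on GelMA, with CPM values of 1.78, 1.1 and 2.06. Per transcript length, Dkk3 was the leading antagonist on TCP with 23.4% of the antagonist TPM, and Dkk2 was the leading one on both hydrogels with 36.3% on GelMA and 47.6% on GelMA-PSS. The share of Wif1 was 11.5% on TCP, 3.43% on GelMA and 1.02% on GelMA-PSS.

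The Dishevelled adaptors, which share a domain layout and act downstream of every Frizzled receptor, did not differ alike. Dvl1 was level, with CPM values of 154 on TCP, 155 on GelMA and 155 on GelMA-PSS, and so was Dvl2, with 31.1, 31.5 and 31.4. Their log2 ratios of GelMA-PSS against either control were between -0.01 and 0.01, and became 0.15 for Dvl1 and 0.38 for Dvl2 against GelMA after the correction. Scaled by total counts, Dvl1 turned negative against GelMA, at -0.14. Dvl3 had CPM values of 63.8, 60.1 and 32.1, which gave log2 ratios to GelMA of -0.90 and to TCP of -0.99, the latter just inside the threshold, or -0.72 and -0.83 after the correction. Per transcript length, Dvl1 held 67.4% of the Dishevelled TPM on TCP and 76.4% on GelMA-PSS, while Dvl3 held 23.5% and 13.3%. Dvl1 and Dvl2 share exon bases with Tas1r3 and Acadvl on the opposite strand.

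**Figure D3:**
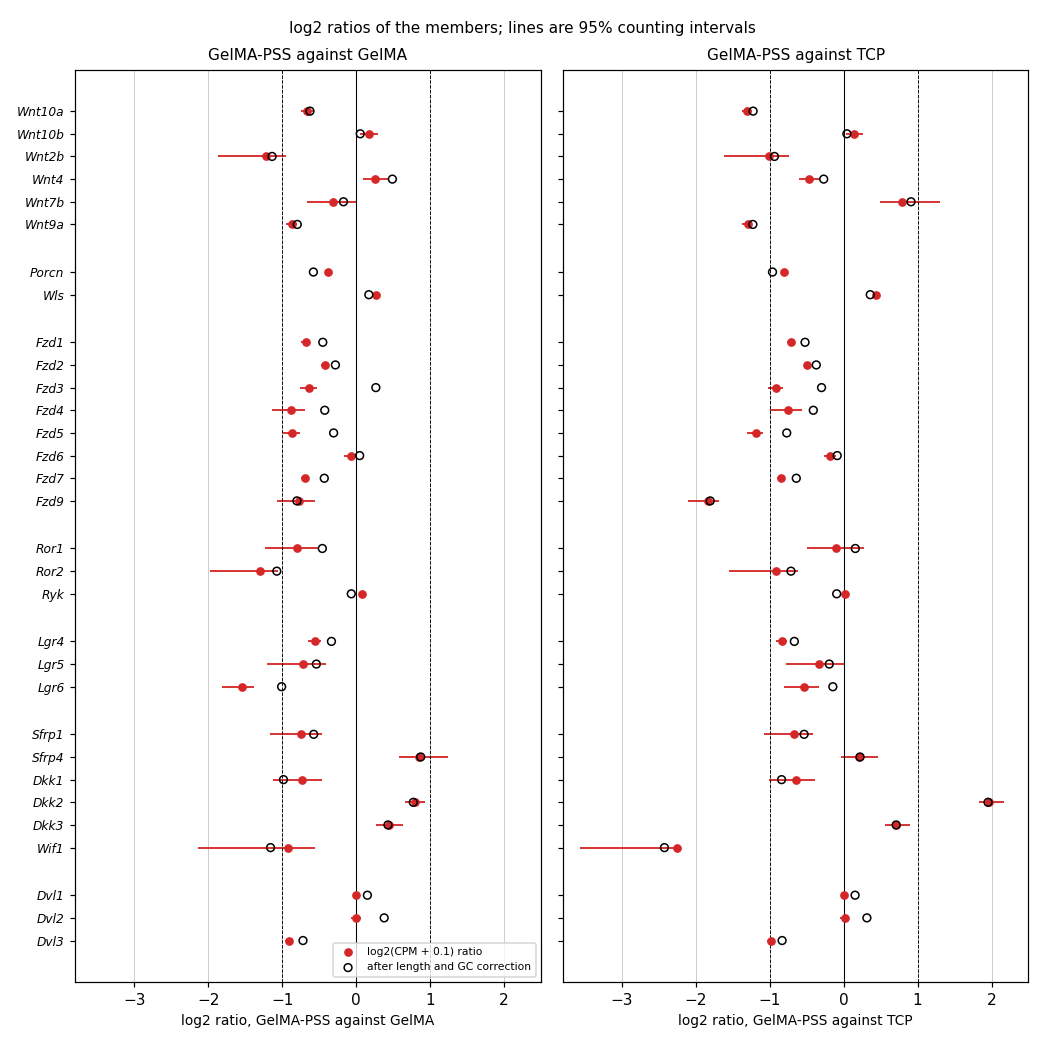
Log2 ratios of the 31 members for GelMA-PSS against GelMA (left) and against TCP (right), as red points on log2(CPM + 0.1) and open circles once corrected for length and GC content, with red lines for the 95% counting intervals of the plain CPM ratio and dashed lines at 2-fold. Wif1 has the lowest value against TCP at -2.26, a direction fixed by the filter, and Dkk2 the highest at 1.96.

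Counted over the 31 members above the CPM limit, those past 2-fold were 3 higher and 2 lower on GelMA than on TCP, where 1.62% and 0.805% of all 13169 genes tested were past it. Between GelMA-PSS and GelMA, 0 were higher and 3 lower (Wnt2b, Ror2 and Lgr6), against 2.7% and 3.99% of all genes. Between GelMA-PSS and TCP, 1 was higher and 6 lower (Wnt10a, Wnt9a, Wnt2b, Fzd5, Fzd9 and Wif1), against 5.3% and 4.78%. Against both controls, 0 were higher and 1 lower (Wnt2b), against 1.97% and 2.23%. Wnt2b and Ror2 passed the CPM limit through GelMA alone, and Wif1 through TCP alone. Their lower direction against that library was therefore fixed by the filter. With the limit set on the mean CPM instead, Lgr6 alone was past 2-fold lower than GelMA, and no member was lower than both controls. The share of all genes past 2-fold with that limit is not given, so this shows only how the calls moved. After the correction, 2 members were past 2-fold higher (Wnt7b and Dkk2) and 2 lower on GelMA than on TCP, against 1.53% and 0.804% of 13054 genes. For GelMA-PSS the corrected counts were 0 higher and 4 lower than GelMA (Wnt2b, Ror2, Lgr6 and Wif1), against 1.13% and 2.62%, and 1 higher and 4 lower than TCP, against 3.09% and 4.03%. Wif1 alone was then lower than both controls and none was higher, against 1.64% and 0.689%. With a pseudocount of 1, which compresses low levels, 9 of the 15 ratios past 2-fold came inside it. For GelMA against TCP these were Wnt7b, Lgr6, Dkk2, Fzd9 and Wif1. For GelMA-PSS they were Wnt2b and Ror2 against GelMA, and Wnt2b and Wif1 against TCP. Scaled by total counts, 5 members were past 2-fold below both controls, and the share of all genes for that setting is not given. The comparisons share libraries, and these counts have no replicate behind them.

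At any size, 21 of the 31 members were lower on GelMA-PSS than on both controls, and 7 were higher, where 39.3% of all genes tested were lower and 45.3% higher. The 5 members that passed the limit through 1 control alone could not have been higher than both. With the filter on the mean CPM, which does not have this effect, 16 of 26 members were lower and 7 higher, against 39.2% and 45.6% of 12804 genes. Once corrected for length and GC content, 19 of the 31 were lower and 7 higher, against 40.9% and 39.7%. The order TCP above GelMA above GelMA-PSS was that of 13 members, Wnt10a, Wnt9a, Porcn, Fzd1, Fzd2, Fzd3, Fzd5, Fzd6, Fzd7, Fzd9, Lgr4, Wif1 and Dvl3, against 21.2% of all genes, and Myh3 had the same order. The reverse order was that of Wls, Dkk2, Dkk3 and Dvl1, against 22.5%. These orders include differences within counting error. The interval of the ratio of GelMA-PSS to GelMA was from 0.982 to 1.02 for Dvl1 and from 0.894 to 1.01 for Fzd6. The median log2 ratio of the 31 members was -0.03 for GelMA against TCP, -0.66 for GelMA-PSS against GelMA and -0.64 for GelMA-PSS against TCP. All genes tested had medians of -0.01, 0.04 and 0.04. The corrected medians of the members were -0.04, -0.42 and -0.37, against -0.005, -0.006 and -0.004 for all genes. These medians include the 5 members that passed the limit through 1 control alone. With the filter on the mean CPM the uncorrected medians of the members were -0.07, -0.49 and -0.59.

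**Figure D4:**
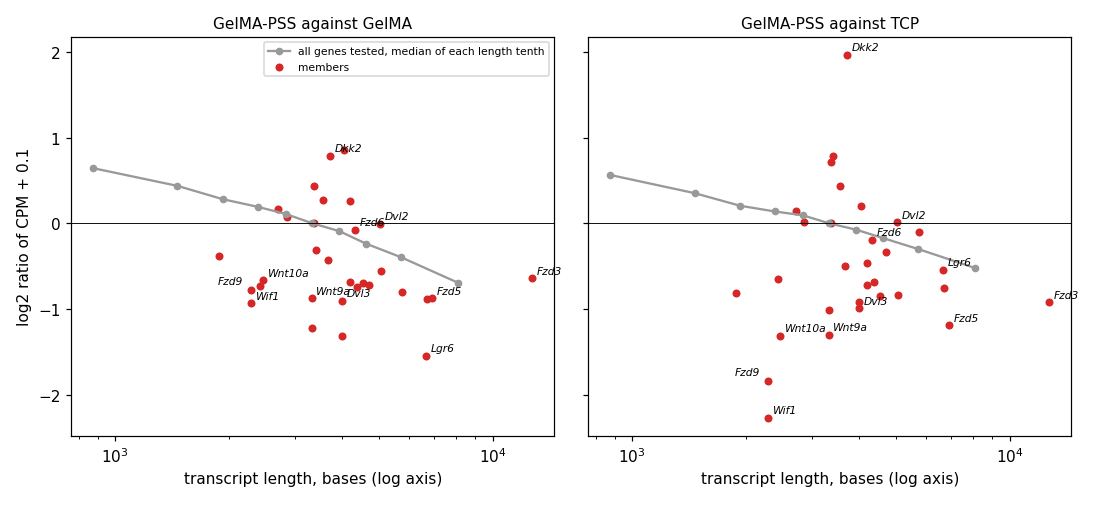
Log2 ratio of GelMA-PSS against GelMA (left) and against TCP (right) by transcript length on a log axis, with the 31 members as red points and, in grey, the median of all genes tested in each of 10 length classes. Against GelMA the grey line falls from 0.64 in the shortest class to -0.69 in the longest, and short members such as Wnt10a and Fzd9 lie below it while Dvl2 lies above it.

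Other genes of the pathway were taken from a list of 40, of which 27 reached a CPM of 1. Their median log2 ratio for GelMA-PSS was -0.21 when set against GelMA and -0.15 when set against TCP, and 0.02 and 0.01 after the correction. Past 2-fold against both controls, 2 were lower and 0 higher, where 2.23% and 1.97% of all genes tested were, and after the correction 0 were past it in either direction, against 1.64% and 0.689%. Axin2, a feedback gene and common readout of β-catenin signaling, was 1 of these 2. It had CPM values of 3.35 on TCP, 2.24 on GelMA and 0.972 on GelMA-PSS, from 408, 204 and 176 counts. Its log2 ratios were -1.13 to GelMA and -1.69 to TCP, or -0.90 and -1.51 after the correction. With a pseudocount of 1, Axin2 was no longer past 2-fold against both controls. The other was Apc, a scaffold of the β-catenin destruction complex, with a log2 ratio to GelMA of -1.16, and of -0.19 when corrected.

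Of 7 feedback and target genes tested, 5 (Axin2, Znrf3, Lef1, Tcf7 and Myc) were lower on GelMA-PSS than on both controls at any size, against 39.3% of all genes, 1 was higher (Ccnd1) and 1 lay between them (Nkd2). The latter genes, and those of the 5 other than Axin2, were named after their values were seen. Nkd2, which encodes a Dishevelled-binding inhibitor, was past 2-fold lower than TCP on both hydrogels, with CPM values of 6.28 on TCP, 1.68 on GelMA and 2.12 on GelMA-PSS. Ccnd1, the cyclin D1 gene, was highest on GelMA-PSS, at 74.4 against 58.1 on GelMA and 28.6 on TCP, with a corrected log2 ratio of 1.43 against TCP. The co-receptor gene Lrp6 had CPM values of 59.8 on TCP, 67.0 on GelMA and 36.3 on GelMA-PSS. Its log2 ratio against GelMA went from -0.88 to -0.16 with the correction, whereas that of Lrp5 turned from -0.32 to 0.11. Lrp5 lay between the controls on GelMA-PSS, with CPM values of 70.5, 110 and 88.4. Its log2 ratio to TCP was 0.33, or 0.66 after the correction. For Ctnnb1, which encodes β-catenin, the corrected log2 ratio was -0.12 to GelMA and 0.06 to TCP.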

How the data were processed

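Raw, unnormalized counts for each gene symbol were deposited by the authors, with 1 library per substrate. The submitters' processing notes name TopHat, edgeR and the builds mm10 and hg19, and the counting tool and annotation are not given in the sources used here. The labels name a SMARTER mRNA kit and the methods a TruSeq kit with strand-specific paired-end reads.

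Lines that shared 1 of 35 repeated symbols were summed. Counts were scaled with TMM factors (edgeR 4.0.16) of 1.02, 1.04 and 0.943 for TCP, GelMA and GelMA-PSS. CPM took the place of the FPKM of the methods. Genes that reached a CPM of 1 on any substrate entered the comparison (called tested), with a pseudocount of 0.1 and the 2-fold threshold of the methods. A pseudocount of 1 would compress members near a CPM of 1 and was an alternative. In each library more genes had 2 counts than 1, and where each fragment gave 2 counts the intervals are too narrow. GENCODE vM21 (GRCm38) gave the length and GC content of 1 transcript for each gene, matched for all 54 members and by symbol or older symbol for 22847 of 23238 symbols. The loess span was 0.3 (statsmodels 0.14.6). TPM served to compare genes within a library, and the class shares of each library were set side by side without the loess correction. Promoter windows came from RefSeq, with entries for 38 members and none for Wnt10a. Ratios, calls and intervals were tested on simulated data.

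The members and lists were chosen with earlier results of these data known. Every member above the CPM limit was named, with its CPM in all 3 libraries for those past 2-fold in any comparison and for the highest member of each class.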

Additional observations from a re-analysis of the deposited data

How the results depend on the processing

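The number of members above the limit was also 31 with total counts and with median-of-ratios factors, whereas 23 reached a TPM of 1. With a pseudocount of 1, the members past 2-fold numbered 0 higher and 0 lower for GelMA against TCP, 1 lower for GelMA-PSS against GelMA and 0 lower against both controls. The median log2 ratios of GelMA-PSS were then -0.42 against GelMA and -0.39 against TCP, and 1 pathway gene, Apc and not Axin2, was lower than both controls. Scaled by total counts, which moved the median of all genes from 0.04 to -0.11 for GelMA-PSS against GelMA, 8 members were lower there, 5 were lower than both controls, and the median was -0.81. Corrected for length and GC content, the medians were -0.42 and -0.37, and 0 pathway genes were lower than both controls. With every gene of at least 3 counts, 5 members were lower than GelMA and 2 lower than both controls, with medians of -0.41 and -0.46. With the filter on the mean CPM, 1 was lower for GelMA against TCP, 1 for GelMA-PSS against GelMA and 0 against both controls, and the median against GelMA was -0.49. At 1.5-fold, 5 members were lower on GelMA than on TCP, 2 were higher and 17 lower on GelMA-PSS than on GelMA, 3 higher and 16 lower than on TCP, and 1 higher and 14 lower than on both. For these settings, other than the correction, the share of all genes past the threshold is not given. Their counts therefore show how the calls moved and are not a result about the members. Of the 15 ratios past 2-fold, 9 were inside it with the pseudocount of 1, 3 after the correction, 1 with median-of-ratios factors (Lgr6 for GelMA against TCP) and 0 with total counts, which brought 7 others past it, and none of the 15 changed sign with these 2 settings, total counts or median-of-ratios factors. No paired analysis was possible because each substrate has 1 library, which also leaves no replicate to leave out. Members with fewer than 100 counts are limited by depth.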
